A study of Mus musculus with 16 samples.

Results

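Complement and acute-phase transcripts were followed through 4 conditions in cultured murine gingival fibroblasts (mGF), as 8 genes of the 56941 in the deposited count table: C1ra, C4b, C3, Cfb, Serping1, Cd55, Saa3 and Ptx3. The genes were taken by symbol, and they were chosen by their counts across the 4 conditions in these same libraries, which were already known. Their values across the conditions are therefore given as a description and with no p-value. Where it is said how many members passed the threshold of the fit over all genes, the same values that chose them decided it, and nothing is read from it. The group is named for secreted proteins, which holds for 7 of the 8 products, since Cd55 is anchored in the cell membrane.

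The cells were wild-type (WT) primary fibroblasts grown from gingival explants of C57Bl6 mice aged 3 to 6 months and used between passages 2 and 8. They were treated for 24 h with BSA (control), the vehicle protein without fatty acid, listed at 200 µM, with mouse IL-1β at 1 ng/mL, with 200 µM palmitate complexed to BSA, or with palmitate + IL-1β. Per the study the cells given IL-1β alone received the BSA vehicle too. Bulk RNA was sequenced in 16 libraries, 4 per condition, numbered 1 to 4 for BSA, 5 to 8 for IL-1β, 9 to 12 for palmitate and 13 to 16 for palmitate + IL-1β. The labels do not say how many mice or separate cultures these came from.

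Complement is a cascade of proteases and opsonins in blood and tissue fluid. In the classical pathway the protease C1r activates C1s, which cleaves C4 and C2, in the alternative pathway factor B binds activated C3, and both routes meet at C3. Acute-phase proteins such as serum amyloid A and pentraxins are secreted early in inflammation, by liver and also by stromal cells, and bind microbes, lipids or complement components.

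The libraries held 21234789 to 92752515 counts in gene rows. Palmitate replicate 10 was the deepest, and the other 15 held at most 35329711. All 10 fibroblast markers were tested, and their summed level was 31868 to 37249 CPM, the counts of a gene scaled to a common library size. Myeloid markers summed to 3.10 to 4.79 CPM, lymphoid markers to 0.0322 to 0.222 CPM, epithelial markers to 0.205 to 0.760 CPM and endothelial markers to 0.704 to 1.64 CPM. Of the 11 myeloid markers 3 were tested. Csf1r had 24 to 122 counts per library, Cd68 had 18 to 83 and Lyz2 had 9 to 43. Tyrobp, another myeloid marker, had 0 counts in every library, and Ptprc had 0 to 7. CPM values here are scaled for library composition, and 3 counts, taken as the floor of detection, correspond to 0.0331 to 0.146 CPM depending on the library. Intervals and floors cover counting error only. In bulk RNA a change in the number of expressing cells and a change in RNA per cell cannot be told apart.

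The sequence before the start of 2 of these genes is shown because C3 had a large difference with palmitate and Ptx3 was the member whose libraries did not overlap in any pair of conditions. RefSeq promoter windows were found for 5 of the 8 genes, namely Saa3, C3, C1ra, Cd55 and Ptx3. The 250 bases before the RefSeq start are written 5′ to 3′ on the strand of the gene, in GRCm39, with capitals marking matches to the C/EBP motif TTNNGNAA (TTNCNNAA on the other strand). The last capital G of Ptx3 is the base at which a match to the NF-κB motif begins and continues past the start. The C3 window is chr17:57535137-57535386 on the minus strand, and the Ptx3 window is chr3:66127058-66127307 on the plus strand.
C3: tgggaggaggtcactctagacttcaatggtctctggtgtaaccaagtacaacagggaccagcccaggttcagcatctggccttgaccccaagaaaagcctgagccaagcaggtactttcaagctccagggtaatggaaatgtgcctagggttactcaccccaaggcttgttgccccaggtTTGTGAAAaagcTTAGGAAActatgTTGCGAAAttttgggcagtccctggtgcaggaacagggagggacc
Ptx3: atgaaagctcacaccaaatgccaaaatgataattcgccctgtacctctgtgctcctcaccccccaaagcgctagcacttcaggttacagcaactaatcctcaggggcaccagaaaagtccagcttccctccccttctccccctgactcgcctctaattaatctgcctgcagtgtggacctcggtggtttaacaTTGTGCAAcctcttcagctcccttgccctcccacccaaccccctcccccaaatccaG

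Positions below are counted from -1 at the last base before the start and from 1 after it. The C3 window held 3 C/EBP matches, at -70 to -63, -58 to -51 and -45 to -38, and Ptx3 held 1, TTGTGCAA at -57 to -50. Saa3 held 4, of which the nearest to the start was TTATGCAA at -99 to -92, C1ra held 3 and Cd55 held 0. A C/EBP match was found in 40.7% of all 32851 RefSeq windows of 300 bases, 250 before the start and 50 after it. NF-κB matches were found in Ptx3 only, as 2 overlapping words from -1 to 10, against 8.46% of all windows. The STAT word TTCNNNGAA was in C1ra only, at 33 to 41, against 8.3% of windows. The word TATAAA, searched on the strand of the gene alone, was in C3 only, at 15 to 20, against 8.32%. The AP-1 word TGANTCA was in 0 of the 5 windows, against 7.81% of all. These matches are descriptions of letters and not of binding. The RefSeq and GENCODE starts differ for several of these genes. The Saa3 and Cd55 stretches lie whole within the GENCODE canonical transcript's exons (250 of 250 bases), and 216 bases of the C1ra stretch do, against 19 for C3 and 0 for Ptx3.

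C1ra, which encodes the C1r protease that starts the classical pathway, was higher with palmitate. It lies on chromosome 6 at 124489364 to 124500402, plus strand (GRCm39, used for all positions). Its level was 16.7, 16.3, 16.0 and 16.3 CPM in the BSA libraries and 21.0, 17.6, 17.4 and 16.9 CPM with IL-1β. It was 29.3, 31.9, 31.3 and 31.8 CPM with palmitate and 33.8, 32.5, 28.9 and 29.2 CPM with palmitate + IL-1β. Every palmitate-treated library was thus above every library without palmitate, the 2 palmitate conditions overlapped, and the IL-1β libraries all lay just above BSA. The log2 fold change against BSA was 0.93 with palmitate (SE 0.06), 0.93 with the combination (SE 0.06) and 0.16 with IL-1β (SE 0.07). C1ra shares 50.8% of its 50-base words with other genes, most of them with its copy C1rb, which held at most 4 counts in any library, so that its level depends on how such reads were assigned.

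C4b, the mouse gene of complement C4, was low and its conditions overlapped (chromosome 17, 34947354 to 34962912, minus strand). The BSA libraries held 2.10, 2.94, 3.55 and 2.24 CPM and the IL-1β libraries 2.7, 3.08, 2.82 and 2.69 CPM. Palmitate gave 2.96, 4.17, 3.34 and 4.03 CPM, and the combination gave 4.56, 4.63, 3.92 and 3.28 CPM. Every treated condition overlapped BSA, and the combination was above IL-1β in all 4 libraries. The log2 difference with palmitate was 0.47 (SE 0.15). It was 0.34 without BSA replicate 1, 0.39 without BSA replicate 4 and 0.36 without palmitate replicate 10, and in each of these fits C4b no longer passed the threshold. C4b shares 34.8% of its 50-base words with C4a, which held 3 to 28 counts per library.

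C3, the protein at which the pathways of complement meet, was the member with the largest difference in CPM (chromosome 17, 57510964 to 57535155, minus strand). Its level was 17.8, 17.3, 17.0 and 20.1 CPM in BSA and 60.1, 54.5, 63.0 and 56.4 CPM with IL-1β. Palmitate gave 424, 441, 402 and 404 CPM, and palmitate + IL-1β gave 464, 458, 434 and 459 CPM. The order was BSA, IL-1β and then both palmitate conditions, with no overlap except between the last pair. The mean was 18 ± 1.39 CPM in BSA, 58.5 ± 3.79 with IL-1β, 418 ± 18.5 with palmitate and 454 ± 13.4 with both (SD, n = 4). Relative to BSA the mean was 3.24-fold with IL-1β, 23.2-fold with palmitate and 25.2-fold with both. C3 shares no 50-base word with another gene.

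Cfb, which encodes factor B, the protease of the alternative pathway, cannot be read from this table. It held 0 counts in every BSA library and at most 3 in any library. Its position is chromosome 17, 35074852 to 35081559, minus strand. Of the 3346 bases of its canonical transcript, 2246 also lie in the same-strand read-through gene Gm20547, which had 0 counts in every library. A further 356 lie in Nelfe on the other strand, and 744 lie in neither. Reads placed in 2 genes were set aside as ambiguous, at 1.22 to 1.37% of each library. The part of this overlap in the low counts was not tested, and no fold is given for Cfb.

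The regulators were near 1 or 2 CPM. Serping1, the C1 inhibitor that blocks C1r and C1s (chromosome 2, 84595705 to 84620873, minus strand), was 0.918, 1.1, 1.07 and 0.979 CPM in BSA and 1.35, 0.430, 0.918 and 0.704 CPM with IL-1β. With palmitate it was 1.89, 1.65, 1.51 and 1.44 CPM, and with both it was 1.53, 2.02, 1.99 and 1.66 CPM. The palmitate conditions lay above BSA and IL-1β without overlap, whereas IL-1β overlapped BSA and had the widest spread. The log2 fold change was 0.67 with palmitate, 0.82 with both and -0.25 with IL-1β (SE 0.22, 0.22 and 0.25).

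Cd55, decay-accelerating factor, which dissociates C3 convertases on the cell's own membrane, was low in every condition (chromosome 1, 130366469 to 130390926, minus strand). The BSA libraries held 1.98, 1.32, 1.11 and 2.69 CPM and the palmitate + IL-1β libraries 1.61, 1.39, 1.03 and 1.33 CPM. The log2 difference between them was -0.41 (SE 0.22), and their ranges overlapped. IL-1β gave 1.64, 1.80, 1.68 and 2.49 CPM, all above the combination. Palmitate gave 1.26 to 1.64 CPM. Cd55 shares 10.8% of its 50-base words with Cd55b, which had 0 counts in every library, and Gm16083, with at most 1 count, overlaps it on the other strand.

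**Figure D1:**
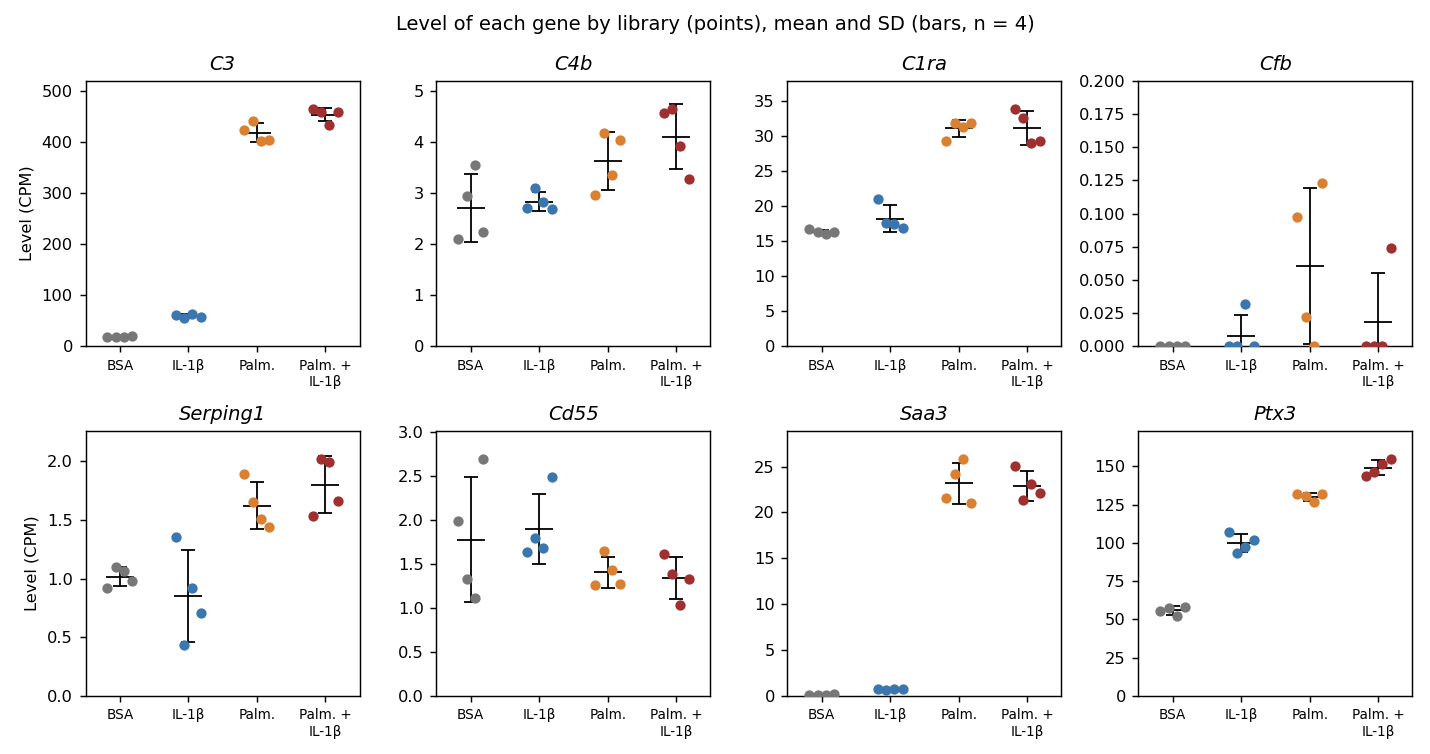
Level in CPM (linear axes from 0, 1 panel per gene) in each of the 16 libraries (points), with the mean and SD of 4 libraries per condition (bars). C3, C1ra, Serping1, Saa3 and Ptx3 lie higher in all palmitate-treated libraries than in all BSA libraries, C4b and Cd55 overlap BSA, and Cfb holds at most 3 counts.

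Saa3, an acute-phase apolipoprotein made largely outside the liver, was close to the detection floor in BSA and abundant with palmitate (chromosome 7, 46361422 to 46365576, minus strand). Its level was 0.0888, 0.0323, 0.0381 and 0.175 CPM in BSA, from 3, 1, 1 and 5 counts, and 0.777, 0.625, 0.696 and 0.787 CPM with IL-1β. It was 21.6, 24.2, 25.8 and 21.0 CPM with palmitate and 25.1, 21.3, 23.1 and 22.1 CPM with palmitate + IL-1β. The conditions stood apart without overlap in the order BSA, IL-1β and palmitate, and the combination overlapped palmitate. Because BSA rests on 10 counts in all, the ratio of pooled counts to BSA is given with an exact 95% counting interval. It was 8.59 with IL-1β (4.43 to 18.6), 283 with palmitate (154 to 591) and 275 with both (149 to 574). Without BSA replicate 4, which held 5 of those counts, the fitted log2 fold change moved from 8.05 to 8.62 with palmitate and from 3.05 to 3.61 with IL-1β. Saa1 and Saa2, its close copies, held at most 2 counts in any library, and 0.939% of the 50-base words of Saa3 are shared.

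Ptx3, the long pentraxin that binds microbes and C1q, was abundant already in BSA (chromosome 3, 66127331 to 66133226, plus strand). It was 55.6, 57.6, 52.2 and 58.0 CPM in BSA and 107, 93.3, 97.5 and 102 CPM with IL-1β. Palmitate gave 132, 130, 127 and 132 CPM, and the combination gave 144, 147, 152 and 155 CPM. The 4 conditions formed 4 separate ranges in that order, and Ptx3 was the only member of the 7 tested whose combination libraries all lay above the palmitate libraries. The log2 fold change against BSA was 0.84 with IL-1β, 1.22 with palmitate and 1.42 with both (SE 0.05 each). Addition of IL-1β to palmitate gave 0.20 (SE 0.04).

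**Figure D2:**
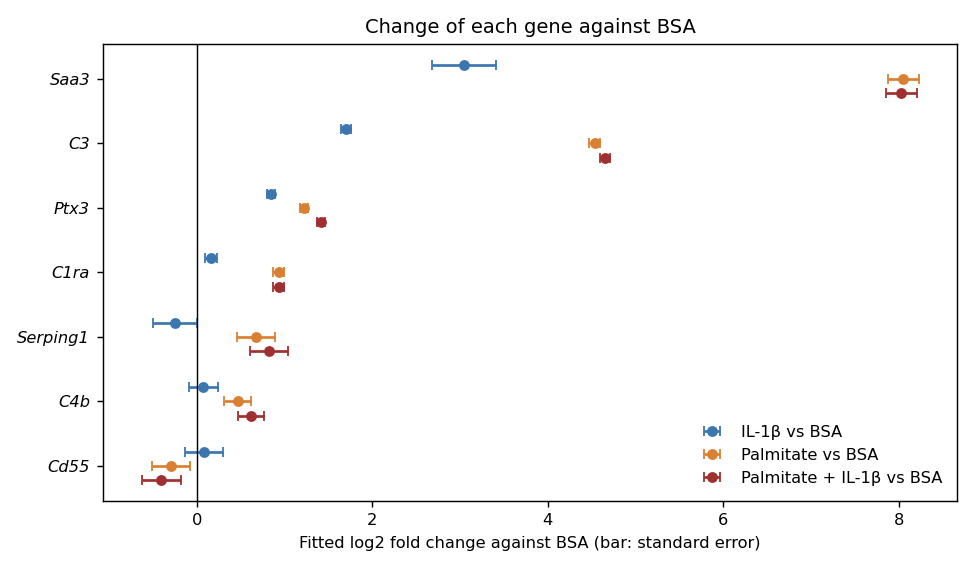
Fitted log2 fold change against BSA (points) with its standard error (bars) for the 7 tested genes with IL-1β, palmitate and palmitate + IL-1β. With palmitate Saa3 and C3 reach 8.05 and 4.53, whereas the other 5 genes lie between -0.41 and 1.42 in all conditions.

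Of the 7 genes tested, 3 passed an adjusted p of 0.05 as higher with IL-1β than with BSA (Saa3, C3 and Ptx3), while 10.1% of all 16306 tested genes did. With palmitate 6 passed as higher (all but Cd55), against 19.8% of all, and with both agents the same 6 did, against 24.8%. Adding palmitate to IL-1β gave 6 higher calls against 18.9%, adding IL-1β to palmitate gave 1 (Ptx3) against 5.71%, and palmitate set directly against IL-1β gave 5 against 16.5%. Against BSA, 0 of the 7 passed as lower, where 4.97% of all genes did with IL-1β, 17.5% with palmitate and 22.5% with both. The lower calls were also 0 for palmitate added to IL-1β, IL-1β added to palmitate and palmitate against IL-1β (16.1%, 4.1% and 15.2% of all genes). The comparisons with BSA share its 4 libraries. Saa3 held 1 to 5 counts per library in BSA and passed the filter on low counts through the treated conditions. Its calls against BSA were thus partly built in. The ranges did not overlap in the higher direction for 4 members with IL-1β (11.1% of all tested genes), 5 with palmitate (19.5%) and 5 with both (22.2%). In the lower direction it was 0 in each of these (6.59%, 16.5% and 19.3%). For palmitate added to IL-1β it was 6 higher and 1 lower, Cd55 (16.7% and 14.6%), and for IL-1β added to palmitate 1 higher and 0 lower (9.16% and 7.59%). The median log2 fold change of the 7 was 0.16, 0.93 and 0.93 in those comparisons, and that of all tested genes lay between -0.0049 and 0.0017.

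Levels per kilobase of canonical transcript were set side by side between genes, within limits. The canonical transcript of Saa3 has 1007 bases, and its RefSeq start lies 476 bases downstream of the GENCODE start. Its level per kb therefore depends on the start chosen. Those of C1ra and C4b depend on how reads shared with their copies were assigned. In BSA, Ptx3 stood at 29.4 CPM per kb, followed by C1ra at 5.47 and C3 at 3.5, while Serping1, Cd55 and C4b lay between 0.498 and 0.554 and Saa3 at 0.0829. With palmitate, C3 stood at 81 CPM per kb, above Ptx3 at 68.6, Saa3 at 23.0 and C1ra at 10.4. C3 moved from rank 8525 of 16245 genes in BSA to rank 485 with palmitate, and Saa3 from 15888 to 2202. Serping1, C4b and Cd55 stayed under 1 CPM per kb in every condition.

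**Figure D3:**
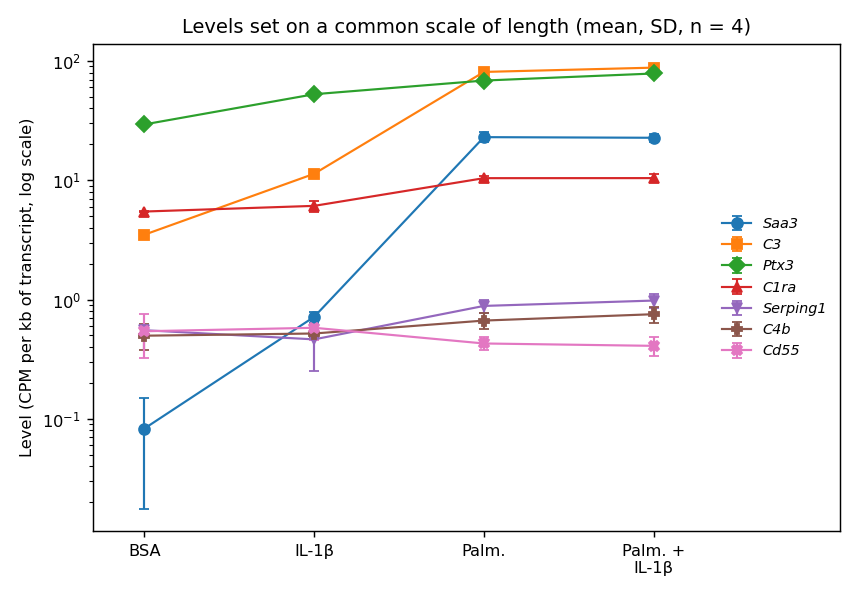
Mean level in CPM per kb of canonical transcript (log axis) of the 7 tested genes in each condition, with the SD over 4 libraries as bars and lines that only join a gene's points. C3 passes Ptx3 in both palmitate conditions, and Saa3 goes from 0.0829 in BSA to 23.0 with palmitate.

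The combination was also set against the sum of the separate rises above BSA, in CPM. For C3 IL-1β alone added 40.4 CPM and palmitate alone 400 CPM, and the combined rise was 436 CPM, 99.0% of their sum (difference -4.38 ± 11.6, SE). For Saa3 the combined rise was 22.8 CPM against a sum of 23.7 CPM (difference -0.914 ± 1.39). For C1ra it was 14.8 against 16.6 CPM (difference -1.85 ± 1.65), which like those of C3 and Saa3 is close to its SE or below it. However, IL-1β alone added 0.638 CPM for Saa3 and 1.89 CPM for C1ra, near or below the same SE. Palmitate alone added 23.1 CPM for Saa3 and 14.8 CPM for C1ra. For Saa3 and C1ra the comparison therefore cannot tell the sum from palmitate alone. For Ptx3 the combined rise of 93.4 CPM fell short of the sum of 119 CPM by more than its error (difference -25.1 ± 4.29). On the log2 scale, where a sum of rises reads as a negative interaction, the interaction was -3.07 for Saa3, -1.58 for C3 and -0.64 for Ptx3. These 3 passed the threshold as lower, where 1.83% of all genes did, and this too is a description.

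**Figure D4:**
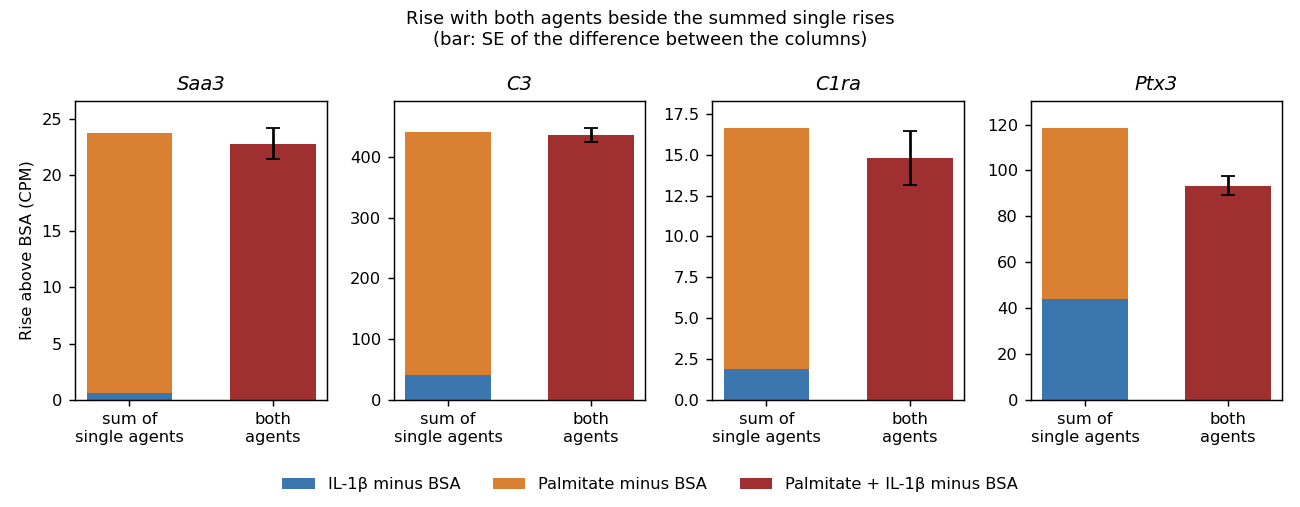
Rise above BSA in CPM for Saa3, C3, C1ra and Ptx3, with the single-agent rises stacked in the left column and the rise with both agents in the right column, whose bar is the SE of the difference between the columns. The right column is 99.0% of the left for C3 and 78.8% for Ptx3.

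The genes nearest to each member were found by the Euclidean distance over the 3 log2 fold changes against BSA, among 11822 tested genes with an average log2 CPM of at least 1. The nearest to Saa3 were Cxcl5 at 0.60 and Nos2 at 0.83, and 0 genes lay within 0.5. For C3 they were Gbp3 at 0.26 and Psmb8 at 0.31, with 4 genes within 0.5. For Ptx3, Slc16a9 and Usp53 were nearest with 82 genes within 0.5, for C1ra Litaf and Il6ra with 362, and for Serping1 Mcf2l and Adhfe1 with 250. C4b (Rbm28 and Snord15a, 2205 genes) and Cd55 (Mlx and H3c2, 4595 genes) lay among many genes with small differences. The 3 fold changes share the BSA libraries, so distances over them are descriptions.

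A wider list of 83 complement and acute-phase genes was examined next, of which 10 had 0 counts in every library and 24 had enough counts to be tested. Palmitate raised 9 of the 24, Lcn2 and Serpina3g included, and lowered 3 (edgeR quasi-likelihood test, Benjamini-Hochberg over all 16306 genes), where 37.3% of all genes were called in either direction. The median log2 fold change of the 24 was -0.10. The combination raised 9 and lowered 5, 58.3% against 47.3%. IL-1β alone raised 1, Lbp, against 15.1% of all genes called, and 4 of the 24 were under 0.05 before adjustment. Adding IL-1β to palmitate gave 0 calls with edgeR, 4 before adjustment and 0 with DESeq2, which gave 6 of the 24 no adjusted p, against 9.81% of all genes. Palmitate added to IL-1β gave 12 calls and palmitate against IL-1β gave 10, against 35.0% and 31.6% of all genes. Lcn2 and Serpina3g are among the calls of each comparison of palmitate-treated with palmitate-free libraries. They passed the filter on low counts through the palmitate conditions alone, so that part of these shares was built in. Colec10, a lower call of the combination against BSA and against IL-1β, was too low in the combination to pass that filter there.

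Of 33 acute-phase genes listed, 8 were tested, and 5 of them passed as higher with palmitate, where 19.8% of all tested genes did. Among the 5, Lcn2 and Serpina3g had too few counts in BSA and with IL-1β to pass the filter on low counts and entered through the palmitate conditions alone, so that a difference was built into their being tested and no p is given for them. Lcn2, which sequesters bacterial siderophores, had 0, 5, 2 and 1 counts in BSA and 5.30, 7.03, 6.65 and 5.05 CPM with palmitate. The ranges did not overlap, and the ratio of pooled counts was 96.4 with a 95% counting interval of 48.8 to 224. The fitted log2 fold change of Lcn2 was 6.43, and it was 7.34 without BSA replicate 2, which held 5 of the 8 BSA counts. Lbp, which presents lipopolysaccharide to CD14, rose from 6.95 ± 0.187 to 80.4 ± 2.40 CPM with palmitate (log2 fold change 3.53, SE 0.06, edgeR adjusted p = 2.31e-28). With IL-1β it rose to 9.20 ± 1.02 CPM (0.40, SE 0.08, edgeR adjusted p = 3.35e-04), and palmitate was above IL-1β by 3.13 (SE 0.06, edgeR adjusted p = 9.61e-27). Serpina3g, a serine and cysteine protease inhibitor, held 2 to 5 counts per library in BSA, and its pooled ratio with palmitate was 19.9 (11.7 to 36.8). Serpina3n and ceruloplasmin (Cp) also rose with palmitate, by 1.44 and 0.98 on the log2 scale (edgeR adjusted p = 2.09e-11 and 2.16e-17). The Serpina3 genes are a family of close copies, so reads may have been divided among them.

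In the classical and lectin pathway, palmitate raised 1 of 6 tested genes and lowered 2, where 19.8% of all tested genes were higher and 17.5% lower, so that the rises were near that share. C1s1, the partner protease of C1r, rose from 38.1 ± 1.63 to 63.5 ± 1.1 CPM (log2 0.74, SE 0.05, edgeR adjusted p = 8.01e-14). The collectin Colec12 fell from 197.0 ± 8.20 to 152 ± 5.83 CPM (log2 -0.38, SE 0.04, edgeR adjusted p = 1.30e-08). Masp1, a protease of the lectin pathway, fell from 207 ± 5.55 to 169 ± 5.18 CPM (log2 -0.29, SE 0.05, edgeR adjusted p = 3.79e-06). Libraries of these 3 genes did not overlap between BSA and palmitate. The collectin Colec10 was low, and it fell with the combination by 1.27 on the log2 scale (SE 0.35), from 0.651 to 0.266 CPM. In the combination it was too low to pass the filter on low counts, and it was tested through conditions where it was higher. Colec10 was called there, but part of that was built in, so no p is given for this fall. With palmitate alone it was 0.436 CPM and was not called (log2 -0.53, SE 0.31, edgeR adjusted p = 0.194). The combination libraries overlapped the palmitate libraries. C2, beside Cfb, held 4 to 31 counts per library, and 62.3% of its canonical transcript also lies in Gm20547.

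Among regulators, 2 of 7 tested genes rose with palmitate and 1 fell, 42.9% in all, near the 37.3% of all tested genes called in either direction. Clusterin (Clu), a fluid-phase inhibitor of the terminal complex, rose from 1.08 to 1.81 CPM (log2 0.72, SE 0.19, edgeR adjusted p = 0.00375), and Cr1l, a membrane regulator of C3 and C4, rose by 0.13 (SE 0.05, edgeR adjusted p = 0.035). Upper-quartile scaling shifted the median of all tested genes by -0.07 for palmitate against BSA, so a rise as small as that of Cr1l depends in part on the scaling. Susd4 fell by 0.78 (SE 0.28, edgeR adjusted p = 0.0267). The BSA and palmitate ranges overlapped for all 3. In the alternative and terminal pathway Cfp (properdin) and C8g were tested, with log2 differences of -0.27 and -0.06 (edgeR adjusted p = 0.395 and 0.895). Of 8 receptors, Itgb2, a leukocyte integrin chain, was tested and rose from 0.660 ± 0.147 to 1.80 ± 0.311 CPM (log2 1.44, SE 0.21, edgeR adjusted p = 1.51e-06). The myeloid markers summed to 3.10 to 4.79 CPM in BSA and 3.11 to 4.11 CPM with palmitate, and their part in the Itgb2 values was not tested.

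**Figure D5:**
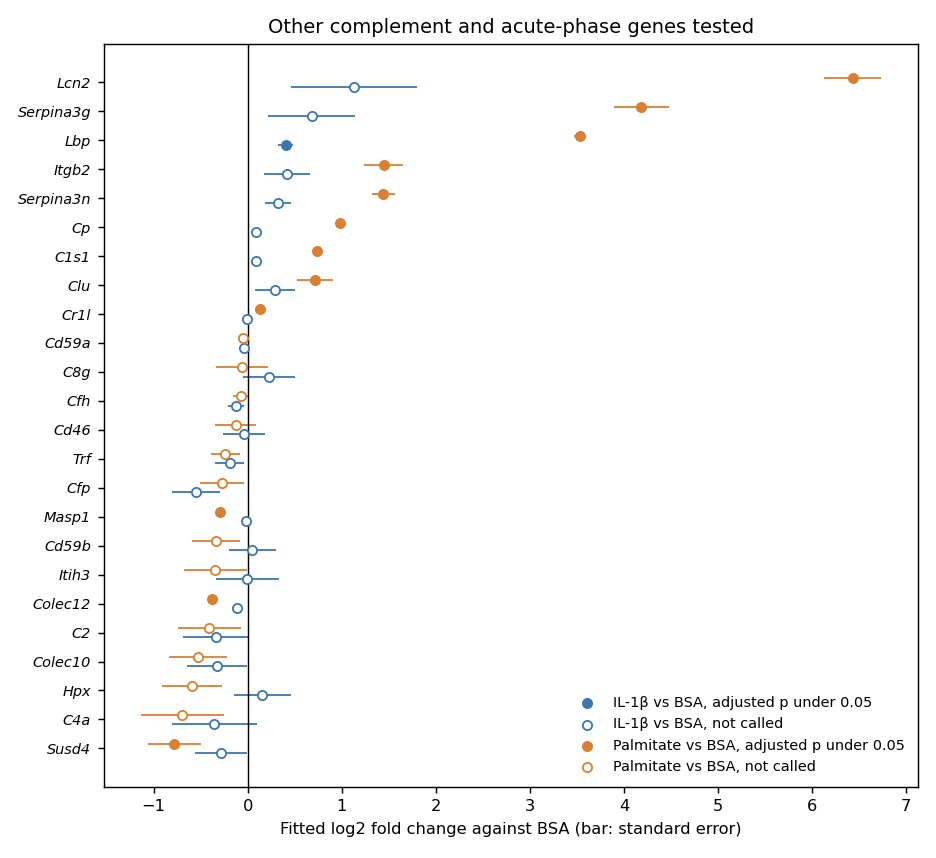
Fitted log2 fold change against BSA with its standard error (bars) for the 24 tested genes of the wider list, with palmitate (orange) and IL-1β (blue), ordered by the palmitate value. Filled points passed an adjusted p of 0.05, which with palmitate were 9 genes between 0.13 and 6.43 and 3 between -0.78 and -0.29, and with IL-1β was Lbp. The 9 include Lcn2 and Serpina3g, which were tested only because of their counts in the palmitate conditions.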

How the data were processed

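Whole-number read counts per gene for 16 libraries were used as the authors deposited them, in 1 table with no further normalization. Per the submitters' processing notes, Trimmomatic 0.39, STAR 2.7.10a and HTSeq 2.0.9 were used with GRCm39, and reads that matched more than 1 gene were set apart as ambiguous. The 5 rows that name no gene, 18.3 to 21.4% of each library, were left out of library sizes. Per the labels the kit was a stranded one for total RNA, whereas the study's methods describe full-length cDNA primed with oligo(dT) and amplified by PCR. Which was used was not settled, so whether reads from Nelfe over Cfb, or Gm16083 over Cd55, were told apart by strand is not known.

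Counts were scaled by TMM and fitted with edgeR 4.0.16 (quasi-likelihood, robust, R 4.3.3) over all 4 conditions. The filterByExpr filter (minimum count 10) left 16306 genes, and p-values were Benjamini-Hochberg adjusted over all of them with a threshold of 0.05. CPM used the TMM-scaled sizes. The labels do not say whether libraries come from separate cultures or animals, so p-values measure only the spread between these libraries, which may be technical. Positions and lengths came from GENCODE release 39, and counting had used release 33. Motifs were searched in RefSeq promoter windows placed in GRCm39 by exact match. The fit and DESeq2 1.42.0 were tested on simulated data.

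The members and the gene lists were chosen with earlier results of these data known. From the wider list, the genes named were the up to 3 largest rises and falls per comparison with BSA or per added agent, among called genes whose libraries did not overlap, plus, whatever their values, C4a, C1rb, C1s1, Saa1, Saa2, Cd55b and C2, and the 2 nearest genes per member. Serpina3n, Cp, Clu, Cr1l, Susd4, Cfp, C8g and Itgb2 were added after their values were seen, to complete counts. Alternatives were upper-quartile scaling, DESeq2, 2 other count filters, the 8 libraries of a comparison alone, and each library left out in turn.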

Additional observations from a re-analysis of the deposited data

Results flagged for a closer look

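In 67 sets of 4 libraries examined for a single library far from the other 3, 4 stood out. Chance alone gives a rate of about 1 in 20, but the 4 include sets of Cfb, so they are not set against it. Cfb was 0.0317 CPM in IL-1β replicate 7 and 0.0737 CPM in palmitate + IL-1β replicate 16, with 0 in the other 3 libraries of each condition, from 1 and 2 counts. Where the other 3 libraries hold 0, any count meets the rule, so that rate does not hold for Cfb. C2 was 0.508 CPM in IL-1β replicate 6 against 0.317 to 0.331 CPM in the others, and C4a was 0.146 CPM in palmitate replicate 9 against 0.309 to 0.330 CPM.

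On the log2 scale the rise of Lbp with palmitate was smaller with IL-1β present. The interaction was -0.55 (SE 0.09, edgeR adjusted p = 2.92e-04), with the 4 palmitate libraries above the 4 BSA libraries and the 4 combination libraries above the 4 IL-1β libraries. A plain sum of rises in CPM also reads as negative on this scale, and its part here was not tested. Lbp was 80.4 CPM with palmitate and 72.7 CPM with both. These overlapped and the difference was not called (log2 -0.15, SE 0.05, edgeR adjusted p = 0.073).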

How the results depend on the processing

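No paired analysis was possible because the replicate numbers run from 1 to 16 and no number is shared between conditions. Counts of called genes over the whole table, and of members, stayed within 1.5 times in all 98 pairs of a comparison and an alternative setting. Several comparisons come from the same refit, so these are not 98 separate fits. The count of wider-list genes called with IL-1β against BSA was 1, and ranged from 1 to 2 with a library left out. It became 2 with upper-quartile scaling and with at least 10 counts in every library (Colec12, as lower, joined Lbp both times). For IL-1β added to palmitate the count was 0, and it was 2 without a filter (Fcna and Lbp, both lower). It was 1 in the 8 libraries alone (Lbp, lower), and 0 to 1 with a library left out. The log2 fold change of C4a ranged from -0.85 to 0.021 with IL-1β and from -0.60 to 0.093 with both agents when a library was left out, positive without BSA replicate 1. The fall of Colec10 when palmitate was added to IL-1β passed the threshold in the main fit and missed it in 9 alternatives. Causes were not tested. With upper-quartile scaling the share of called genes that were higher went from 67.1 to 43.5% with IL-1β, from 53.1 to 37.1% with palmitate and from 52.4 to 38.7% with both. Cd55 passed as lower with both agents (-0.56) without BSA replicate 3, and C4b passed as higher with palmitate against IL-1β in 3 alternatives. Among 679 refitted member fold changes, 672 moved by less than the replicate spread. Many of these refits left a library out, which by arithmetic moves a group mean by less than that group's spread. For those refits the outcome was largely fixed in advance, so nothing is read from this count. Saa3 in BSA and Lcn2 in BSA rest on few counts. Cfb does too, in every condition, and the part of its overlap with Gm20547 in this was not tested.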
